A study of Mus musculus with 23 samples.

Results

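Snrk was targeted by 1 vector in a pool of 26 named lentiviral vectors that were delivered together to the lungs of mice. The Snrk vector was found by its name in the deposited table of barcodes, and a tumour was counted as a barcode with an estimated 500 or more cells. By this rule 8590 Snrk tumours were found among 324965 tumours of all named vectors, a share of 2.64%. The same mice held 24305 tumours of the 2 inert vectors, which carry guides against Neo and non-targeting guides (NT) and served as the reference in each mouse.

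The series used tumour barcode sequencing, in which each infected cell and its descendants carry a vector identifier and a random barcode, so that reads of a barcode in lung DNA, scaled to cells, give the size of 1 tumour. The pool held 24 targeting vectors against 12 genes, among them Lkb1, the salt-inducible kinases (Sik) and other kinases related to AMPK. KT mice carried R26LSL-Tomato and had no Cas9. KT_Cas9 mice carried the same alleles with H11LSL-Cas9, and KTL_Cas9 mice also carried Lkb1flox/flox. All groups thus shared the Tomato reporter, were on a mixed BL6/129 background, and were analysed as whole tumour-bearing lung 4 months after the start of tumour growth. The labels listed 5 KT, 10 KT_Cas9 and 8 KTL_Cas9 mice, of which 4, 10 and 7 were used. KT replicate 4 had no lines in the table. KTL_Cas9 replicate 1 was left out because it held 17 tumours of named vectors, none of them inert. None of those 17 was a Snrk tumour, which allows a share of up to 17.6% by counting error.

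Snrk, the sucrose non-fermenting related kinase, belongs to the kinases related to AMPK, which Lkb1 switches on by phosphorylating their activation loop. Lkb1 (Stk11) is a tumour suppressor in lung adenocarcinoma. The Sik kinases are members of the same group that hold back CRTC coactivators, AMPK is a sensor of cellular energy, the Nuak and Mark kinases are known for roles in adhesion and cell polarity, and Snrk is known for roles in heart and fat metabolism.

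The Snrk vector carried guides against Neo1 and NT behind its bU6 and mU6 promoters and 1 guide against Snrk behind its hU6 promoter. No other vector targeted Snrk, so every value below rests on 1 guide, and whether it cut the gene was not measured in these data. Of the pool's vectors, 4 shared this layout and differed in the guide behind hU6, which makes them the closest matched set. They were told apart by an identifier of 8 bases in front of the barcode, shown here because every count below depends on it.
Snrk vector: ACGGAACA
Lkb1 vector, Lkb1_1st guide: ACACTCAC
Lkb1 vector, Lkb1_2nd guide: CAGACAGT
Inert vector, Neo2 guide: AATTGCCG

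A Snrk tumour was a barcode of 30 bases, 20 of them random. All 22916 Snrk barcodes, of any size, held the fixed gc and ta pairs that separate the random blocks. The barcode of the largest Snrk tumour of each genotype is shown with the fixed bases in lower case and the random bases in capitals, because these single clones weigh heavily on the summed cells.
KT replicate 2: gcACTGAtaCAAAAgcCTGGCtaGCCAGgc
KT_Cas9 replicate 3: gcGAGGGtaAGCAAgcTACGGtaGGGAAgc
KTL_Cas9 replicate 4: gcAATCTtaTTTCTgcTGTTGtaTGTTAgc
The KT barcode had 3939 reads and an estimated 348502 cells. The KT_Cas9 barcode had 9010 reads and 566453 cells. The KTL_Cas9 barcode had 21451 reads and 1740776 cells, so the Lkb1-floxed mice held the largest of these 3 tumours. Of the 8590 Snrk tumours, 237 (2.76%) had a barcode that was also read in another mouse, against 4.95% of the tumours of all named vectors.

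Named vectors had 936090 to 1505173 reads per KT mouse, 92713 to 4516887 per KT_Cas9 mouse and 2181575 to 8547188 per KTL_Cas9 mouse, and the Snrk vector had 22531 to 41584, 2158 to 46164 and 33074 to 155240. The floor of 500 cells was worth 3.13 to 7.81 reads in the KT mice and 6.16 to 51.7 reads in the KTL_Cas9 mice, so tumours near the floor rest on few reads. Snrk tumours summed to 3745 in KT, 4309 in KT_Cas9 and 536 in KTL_Cas9 mice. In KTL_Cas9 mice each value thus rests on 22 to 152 Snrk tumours.

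Snrk tumours were close in size to the inert tumours of the same mice in all 3 genotypes. Size was summarised per mouse as the log-normal mean, the maximum-likelihood mean of a log-normal fit to the tumours. In KT mice, where no Cas9 is present, this was 1737 cells for Snrk against 1740 for inert tumours in replicate 1, 2346 against 1928 in replicate 2, 3519 against 3088 in replicate 3 and 2118 against 1961 in replicate 5. Replicate 1 showed no difference and the other 3 had somewhat larger Snrk tumours. The log2 ratio of Snrk over inert size in KT mice averaged 0.14 ± 0.12 (SD, n = 4) and was above 0 in 3 of 4 mice. This is the background, since the guides cannot act there. A two-sided exact sign-flip permutation over mice gave p = 0.25 (adjusted p = 0.429 over the 24 targeting vectors, 0% of which passed, since 4 mice allow no p below 0.125).

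In KT_Cas9 mice, where Snrk can be cut and Lkb1 is intact, Snrk tumours averaged 1489 cells and inert tumours 1307 cells, as geometric means of the per-mouse values. The log2 size ratio was -0.34 in the lowest mouse, had a median of 0.18 and reached 0.70 in the highest. It averaged 0.19 ± 0.30 (SD, n = 10), a 1.14-fold size with a 95% interval on the log2 scale from -0.03 to 0.41, and was above 0 in 8 of 10 mice. Snrk missed the threshold of 0.05 (exact sign-flip permutation p = 0.0879, adjusted p = 0.100), in a comparison in which 75% of the 24 vectors passed it. Snrk ranked 17th of the 24, whose median was 0.75. Single mice moved this value in both directions. Without replicate 6, the lowest mouse, which had 134 Snrk tumours, the mean was 0.25 and passed (exact permutation adjusted p = 0.0234). Without replicate 2, the highest mouse, it was 0.13, and without replicate 3 it was 0.15 (exact permutation adjusted p = 0.201 for both). With the arithmetic mean in place of the log-normal mean the log2 ratio averaged 0.007 (exact sign-flip permutation adjusted p = 0.992). 

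In KTL_Cas9 mice, whose Lkb1 alleles are floxed, both kinds of tumour were far larger, with geometric means of 46049 cells for Snrk and 38669 cells for inert tumours. The log2 ratio was -0.68 in replicate 2, had a median of 0.26 and reached 0.78 in replicate 8. Its mean was 0.25 ± 0.48 (SD, n = 7), a 1.19-fold size with a 95% interval from -0.23 to 0.64, above 0 in 6 of 7 mice. It did not pass (exact sign-flip permutation p = 0.188, adjusted p = 0.346), and 0% of the 24 vectors did in this genotype. The smallest p that 7 mice allow is 0.0156, which passes the adjustment only where many vectors reach it, so a single vector could not pass. With the arithmetic mean in place of the log-normal mean, the ratio averaged 0.06 (exact sign-flip permutation adjusted p = 0.832). In replicate 8 the median Snrk tumour had 2187 cells against 5841 for inert tumours, the reverse of its log-normal mean.

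The 2 inert vectors show how far a vector without a target can sit from another in the same mice. The log2 size ratio of the inert vector with 3 guides over the one with 2 averaged 0.10 ± 0.07 (SD, n = 4) in KT, -0.03 ± 0.20 (SD, n = 10) in KT_Cas9 and 0.17 ± 0.76 (SD, n = 7) in KTL_Cas9 mice. It reached from -0.32 to 0.42 over the KT_Cas9 mice and from -0.72 to 1.42 over the KTL_Cas9 mice. The Snrk ratio above has both inert vectors pooled as its reference, so its SD of 0.48 in KTL_Cas9 mice is not a like measure. Over the 3-guide inert vector alone, the Snrk ratio had an SD of 0.15 in KT, 0.43 in KT_Cas9 and 0.85 in KTL_Cas9 mice. Each of these was larger than the SD of the inert pair.

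**Figure D1:**
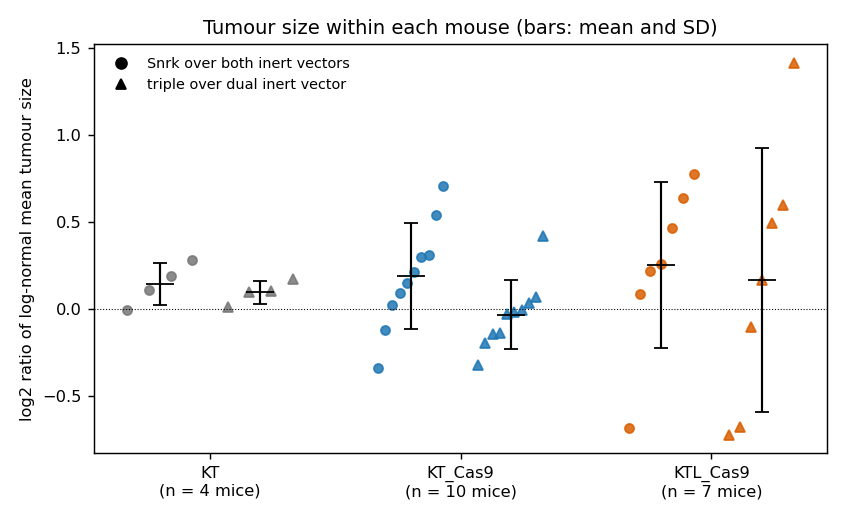
Log2 ratio of the log-normal mean size of Snrk tumours over the inert tumours of the same mouse, 1 point per mouse, with the mean and SD of each genotype. The 3 genotypes overlap, with means of 0.14 in KT, 0.19 in KT_Cas9 and 0.25 in KTL_Cas9 mice.

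Comparing genotypes asks whether the size ratio moved once Cas9 was present and whether it moved further where Lkb1 was floxed. The log2 size ratio of Snrk was 0.04 ± 0.11 (SE) higher in KT_Cas9 than in KT mice, with a 95% interval from -0.31 to 0.39. It ranked 20th of the 24 vectors, 58.3% of which passed, and their median difference was 0.73, above the upper end of the interval for Snrk. The ratio was 0.11 ± 0.19 (SE) higher in KTL_Cas9 than in KT mice, with an interval from -0.45 to 0.64 and an adjusted p of 0.848 by the exact permutation of mouse labels, and 0% of the vectors passed. Between KTL_Cas9 and KT_Cas9 mice it differed by 0.06 ± 0.20 (SE), with an interval from -0.34 to 0.45 and an exact permutation adjusted p of 0.809. There 37.5% of the 24 vectors passed and the median difference was -0.18. The Snrk values of all 3 genotypes overlapped, and none of the 3 differences was larger than the spread between mice. These intervals still allow changes of the Snrk size ratio of up to about 0.39 on the log2 scale upward or 0.31 downward in KT_Cas9 mice. When the largest Snrk tumours were taken in the number that their share in the virus pool allots them, which 8 of 10 KT_Cas9 mice allowed, the differences were 0.22, 0.45 and 0.23, with exact permutation adjusted p values of 0.806, 0.407 and 0.714. With the median over all 26 vectors as the reference in place of the inert tumours, Snrk turned lower in KT_Cas9 mice: its difference from KT mice was -0.48 (exact permutation adjusted p = 0.0274, 62.5% of vectors called) and its value within KT_Cas9 mice was -0.37 (exact permutation adjusted p = 0.00781, 91.7% called). That reference holds the vectors whose own tumours were larger than inert ones in these mice. KT mice are a shared control, so the first and second of these differences are not independent.

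**Figure D2:**
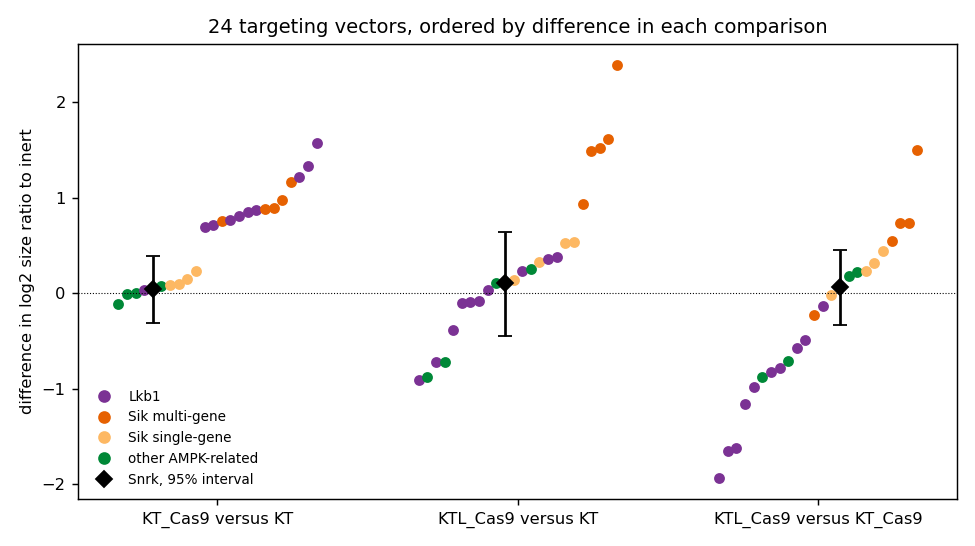
Difference between genotypes in log2 size ratio for each of the 24 targeting vectors, with Snrk marked and its 95% interval from the exact permutation test. The Snrk difference was 0.04 for KT_Cas9 against KT, 0.11 for KTL_Cas9 against KT and 0.06 for KTL_Cas9 against KT_Cas9.

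A mean can hide a change in the largest tumours, so percentiles of Snrk and inert tumour size were compared in each mouse. In KT mice the log2 ratio was 0.09 ± 0.07 (SD) at the 50th percentile, 0.20 ± 0.14 at the 90th and 0.10 ± 0.15 at the 95th. In KT_Cas9 mice it was 0.03 ± 0.07 at the 50th percentile, 0.18 ± 0.25 at the 80th, 0.30 ± 0.42 at the 90th and 0.46 ± 0.70 at the 95th. The median Snrk tumour of KT_Cas9 mice was therefore close to the median inert tumour, and the ratio was higher at higher percentiles up to the 95th, where Snrk tumours had 5332 cells against 3868 (geometric means over mice). The 95th percentile was above 0 in 7 of 10 mice, a 1.38-fold size (exact sign-flip permutation p = 0.0410, adjusted p = 0.0490), where 91.7% of the 24 vectors passed. Against KT mice the ratio at the 95th percentile was 0.37 higher and did not pass (exact permutation p = 0.340, adjusted p = 0.408), while 58.3% of the 24 vectors did. The highest KT_Cas9 mouse at this percentile was replicate 2 at 2.05, with 9832 cells for Snrk against 2367 for inert tumours. It had 66 Snrk tumours, so few of them set its 95th percentile, and the result without it was not tested. At the 99th percentile the log2 ratio was 0.12 ± 1.54 (SD, n = 10), with 6 of 10 mice above 0. The mean was thus lower at the 99th percentile than at the 95th. The lowest mouse there was replicate 6 at -3.52, with 5773 cells for Snrk against 65992 for inert tumours. The 99th percentile without this mouse was not tested.

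In KTL_Cas9 mice the Snrk tumours at the 90th and 95th percentiles were no larger than the inert tumours. The log2 ratio was -0.07 ± 0.80 (SD, n = 7) at the 50th percentile, 0.42 ± 0.66 at the 80th, -0.17 ± 0.26 at the 90th and -0.03 ± 0.60 at the 95th. At the 90th percentile Snrk tumours had 89459 cells against 100387 for inert tumours, with 2 of 7 mice above 0. The 90th percentile ratio was lower by 0.47 on the log2 scale than in KT_Cas9 mice, and this difference passed (-0.47, exact permutation p = 0.0229, adjusted p = 0.0393), as it did for 58.3% of the 24 vectors. The direction is the reverse of that of the log-normal mean, which was 0.06 higher. Against KT mice the same percentile differed by -0.37 (exact permutation p = 0.0485, adjusted p = 0.194), where 0% of the vectors passed.

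**Figure D3:**
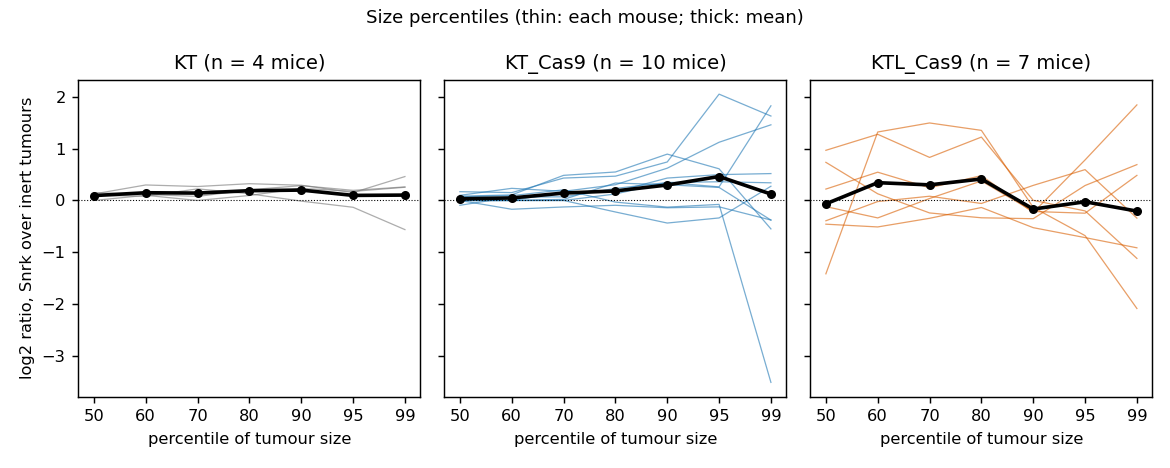
Log2 ratio of Snrk over inert tumour size at percentiles of the size distribution, by genotype, with a thin line for each mouse and a thick line for the mean. In KT_Cas9 mice the mean was 0.03 at the 50th percentile and 0.46 at the 95th, and in KTL_Cas9 mice it was -0.07 and -0.03.

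Large tumours made up a slightly higher share of Snrk tumours than of inert tumours when mice were pooled. Tumours of 5000 or more cells made up 13.5% of Snrk tumours against 11.6% of inert tumours in KT mice, 7.15% against 5.92% in KT_Cas9 mice and 48.3% against 43.1% in KTL_Cas9 mice. At 50000 or more cells the shares were 0.481% against 0.341%, 0.464% against 0.309% and 18.1% against 14.9%. The pooled Snrk share was the higher one in every genotype, KT mice without Cas9 included. Of the 20 Snrk tumours of 50000 or more cells in KT_Cas9 mice, 11 came from replicate 3, so that share rests largely on 1 mouse. These pooled shares give the mice with the most tumours the most weight and were not tested.

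The number of Snrk tumours relative to inert ones was lowest on average in KT and highest in KTL_Cas9 mice, though no difference passed after adjustment at the floor of 500 cells. In KT mice the Snrk vector made 522 tumours against 1496 inert ones in replicate 1, 982 against 3023 in replicate 2, 1269 against 3693 in replicate 3 and 972 against 3231 in replicate 5. The ratio thus varied little among these mice, and without Cas9 it gives the share of the vector in the virus pool. The log2 number ratio averaged -1.60 ± 0.10 (SD, n = 4) in KT mice. In KT_Cas9 mice it ran from -1.69 over a median of -1.46 to -0.92 and averaged -1.43 ± 0.21 (SD, n = 10). In KTL_Cas9 mice it ran from -1.75 over a median of -1.08 to -0.71 and averaged -1.15 ± 0.37 (SD, n = 7). As geometric means of the ratio itself, Snrk tumours numbered 0.329, 0.371 and 0.452 per inert tumour.

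Relative to KT mice, Snrk tumour number was 1.13-fold in KT_Cas9 mice, a log2 difference of 0.17 ± 0.08 (SE) with an exact permutation adjusted p of 0.474. Relative to KT mice it was 1.37-fold in KTL_Cas9 mice, a log2 difference of 0.46 ± 0.15 (SE) with a 95% interval from 0.01 to 0.87 (exact permutation p = 0.0485, adjusted p = 0.206). Relative to KT_Cas9 mice it was 1.22-fold, a log2 difference of 0.28 ± 0.15 (SE) with an interval from -0.02 to 0.57 (exact permutation p = 0.0618, adjusted p = 0.229). None of these passed after adjustment, where 0%, 0% and 8.33% of the 24 vectors did. The Snrk differences nevertheless ranked 5th, 3rd and 7th of the 24, whose medians were 0.09, 0.19 and 0.18. Single mice decide the last of these calls: without KT_Cas9 replicate 2 the difference was 0.34 and passed (exact permutation adjusted p = 0.0493), and without KTL_Cas9 replicate 8 it was 0.39 and passed (exact permutation adjusted p = 0.0444).

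The call on number also differed between analyses. With edgeR's quasi-likelihood test on tumours per vector and mouse, scaled over all named vectors rather than to inert tumours, the difference between KTL_Cas9 and KT mice was 0.31 and passed (edgeR adjusted p = 0.00394, 12.5% of the 24 vectors called). DESeq2 gave 0.29 (adjusted p = 0.00886, 20.8% called). These fits changed both the model and the scaling. The exact permutation test with the median over all 26 vectors as the reference gave 0.13 for KTL_Cas9 against KT mice (adjusted p = 0.418, 0% called) and 0.0514 for KTL_Cas9 against KT_Cas9 mice (exact permutation adjusted p = 0.648, 25% called), both of them smaller than with the inert reference. At a floor about 3 times lower than 500 cells the log2 number ratio of every KTL_Cas9 mouse, from -1.51 to -0.70, lay above that of every KT mouse, from -1.70 to -1.61. Of the 24 vectors, 23 were higher on average in KTL_Cas9 than in KT mice there. How many of them separated the mice fully was not counted. The Snrk difference was then 0.49 ± 0.11 (SE), 1.41-fold, and passed (exact permutation adjusted p = 0.0436, 25% of the 24 vectors called, their median 0.28). Against KT_Cas9 mice it was 0.31 ± 0.11 (SE), 1.24-fold (exact permutation adjusted p = 0.0111, 62.5% called, median 0.26). At that floor 2 reads already count as a tumour in 3 of 4 KT, 4 of 10 KT_Cas9 and 0 of 7 KTL_Cas9 mice, so that the smallest tumours were counted unequally, and the part of this in the result was not tested. At a floor of 1500 cells, which 8 of 10 KT_Cas9 mice could enter because replicates 2 and 5 held too few inert tumours, the Snrk number differences were 0.12, 0.27 and 0.15 and none passed, where 0%, 0% and 4.17% of the vectors did. Floor and mice thus changed together.

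**Figure D4:**
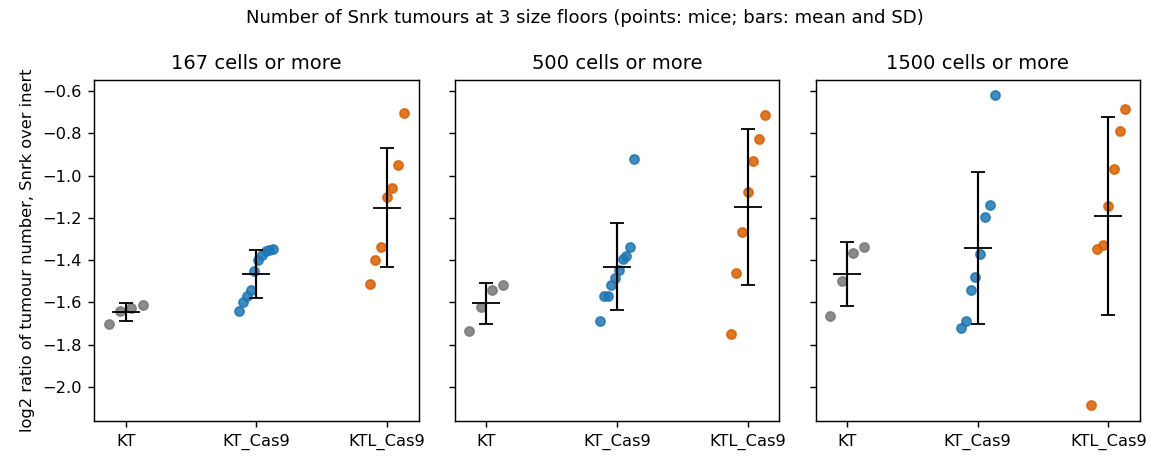
Log2 ratio of the number of Snrk tumours over inert tumours by mouse, with the mean and SD of each genotype, at 3 size floors. At the lowest floor the means were -1.65 in KT, -1.46 in KT_Cas9 and -1.15 in KTL_Cas9 mice, and the KT and KTL_Cas9 mice do not overlap. There 23 of the 24 vectors were higher on average in KTL_Cas9 than in KT mice.

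The inert vector of the same layout moved in the same direction as Snrk. The log2 number ratio of the inert vector with 3 guides over the one with 2 was -1.61 ± 0.11 (SD, n = 4) in KT, -1.46 ± 0.25 (SD, n = 10) in KT_Cas9 and -1.19 ± 0.33 (SD, n = 7) in KTL_Cas9 mice. Counted against that matched inert vector alone, the Snrk number differed between KTL_Cas9 and KT mice by 0.16 (exact permutation p = 0.576) and between KTL_Cas9 and KT_Cas9 mice by 0.09 (exact permutation p = 0.659). Counted against the inert vector with 2 guides alone, the differences were 0.58 (exact permutation p = 0.0212, adjusted p = 0.0848) and 0.37 (p = 0.0158, adjusted p = 0.0548). The size of the number difference thus depended on which inert vector was the reference. The matched vector is the rarer one, with 21 to 103 tumours per KTL_Cas9 mouse.

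The summed cells of Snrk tumours combine size and number, and did not differ between genotypes beyond the spread between mice. The log2 ratio of Snrk over inert cells was -1.47 ± 0.18 (SD, n = 4) in KT, -1.42 ± 1.21 (SD, n = 10) in KT_Cas9 and -1.08 ± 0.69 (SD, n = 7) in KTL_Cas9 mice. The difference was 0.05 ± 0.39 (SE) between KT_Cas9 and KT, 0.39 ± 0.28 (SE) between KTL_Cas9 and KT, and 0.34 ± 0.46 (SE) between KTL_Cas9 and KT_Cas9 mice. Exact permutation adjusted p values were 0.951, 0.714 and 0.694, where 33.3%, 0% and 20.8% of the 24 vectors passed. With edgeR on reads per vector, scaled over all named vectors, the first difference was -0.94 and passed (edgeR adjusted p = 0.0361, 41.7% called), and the last was 1.04 and passed (edgeR adjusted p = 0.00660, 54.2% called). These fits changed the model and the unit as well as the scaling. In the exact test, the first difference was -0.93 with the median over all 26 vectors as the reference. With the inert reference kept, it was -0.14 at a floor of 1500 cells and -0.11 without KT_Cas9 replicate 2. Its direction thus turned in several settings, and the cause was not tested.

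Single tumours held a large share of the cells in some mice. In KT_Cas9 replicate 4 the ratio was -2.95, and 1 inert tumour of 5025140 cells held 64.3% of all inert cells. In KT_Cas9 replicate 6 it was -4.02, and 1 inert tumour of 1401960 cells held 54.0%. In KT_Cas9 replicate 7 it was -0.50, and 1 Snrk tumour of 460391 cells held 48.4% of the Snrk cells. With the largest Snrk tumour and the largest inert tumour of each mouse left out, the ratio was -1.51 ± 0.17 (SD, n = 4), -1.31 ± 0.73 (SD, n = 10) and -1.21 ± 0.49 (SD, n = 7), with a smaller SD in KT_Cas9 and KTL_Cas9 mice. In KT_Cas9 replicates 4, 6 and 7 it was then -1.50, -2.96 and -1.30, so replicate 6 stayed the lowest KT_Cas9 mouse.

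Within KT_Cas9 mice Snrk tumours were smaller than those of most Lkb1 vectors and of all vectors that target several Sik genes. The difference in log2 size, Snrk minus the other vector, was tested within mice for each of the 23 other targeting vectors, and 14 of 23 (60.9%) passed, with Snrk the lower one in all 14. These were 9 of 10 Lkb1 vectors and 5 of 5 vectors against several Sik genes. For the latter the mean difference ran from -0.85 to -0.70, so their tumours were the larger ones. In the matched layout, the difference of Snrk from the vector with the Lkb1_1st guide was -1.08 ± 0.59 (SD, n = 10, exact sign-flip permutation adjusted p = 0.0075), with Snrk the larger in 1 of 10 mice. From the vector with the Lkb1_2nd guide it was -0.75 ± 0.41 (SD, n = 10), with Snrk the larger in 0 of 10. The 1 Lkb1 vector that did not pass carried the Lkb1_2nd guide behind the mU6 promoter of a 3-guide vector, with a difference of 0.0001 ± 0.28 (SD, n = 10).

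Against the vectors for the other AMPK-related kinases the Snrk differences in KT_Cas9 mice were small. They were 0.15 ± 0.25 for Mark2, Mark3 and Mark4 together, 0.14 ± 0.25 for Nuak1 and Nuak2 together, and 0.07 ± 0.21 and 0.10 ± 0.28 (all SD, n = 10) for the vectors with 3 and 2 guides that target Ampk1 and Ampk2, the catalytic subunits of AMPK. None of these passed, nor did any of the 4 vectors against a single Sik gene, whose differences ran from -0.08 to 0.05. In KT mice 0% of the 23 contrasts passed, since 4 mice allow no sign-flip p below 0.125. The differences in KT mice ran from -0.11 to 0.26.

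In KTL_Cas9 mice 0% of the 23 contrasts passed either. The smallest p that 7 mice allow passes the adjustment only where many contrasts reach it, so a single contrast could not pass. For the 5 vectors against several Sik genes the mean differences, Snrk minus the vector, ran from -2.21 to -0.56. The value of -0.56 had an SD of 2.54, with Snrk the larger in 3 of 7 mice. From the Mark vector Snrk differed by 0.92 ± 0.52 (SD, n = 7), positive in 7 of 7 mice, at the smallest p the design allows (exact sign-flip permutation p = 0.0156, adjusted p = 0.0898). Differences of this kind were also seen from vectors against Lkb1, whose alleles are already floxed in these mice. The 10 Lkb1 vectors ran from -0.19 to 1.197, and the 2-guide vector with the Lkb1_2nd guide behind hU6 gave 0.66 ± 0.51 (SD, n = 7) in 7 of 7 mice (exact sign-flip permutation p = 0.0156, adjusted p = 0.0898). Against the 3-guide Ampk vector the difference was 1.02 ± 0.82 (SD, n = 7), positive in 6 of 7 mice (exact sign-flip permutation p = 0.0469, adjusted p = 0.135). From the 2-guide vector against the same Ampk genes it was -0.01 ± 0.92 (SD, n = 7), positive in 3 of 7 mice, so the Ampk vectors did not share the difference. Against the Nuak vector it was -0.01 ± 0.33 (SD, n = 7).

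The vectors whose size pattern over the 21 mice was most like that of Snrk were the Nuak1 and Nuak2 vector, with a mean absolute difference of 0.187 in log2 size ratio, the Sik1_1st vector with 0.206 and the Sik1_2nd vector with 0.300. The least alike, at 1.19, carried the _2nd guides against Sik1 and Sik3. For the Nuak vector the log2 size ratio over inert tumours averaged 0.16 in KT, 0.04 in KT_Cas9 and 0.26 in KTL_Cas9 mice, beside 0.14, 0.19 and 0.25 for Snrk. Its number difference between KTL_Cas9 and KT mice was 0.61 (exact permutation p = 0.0121, adjusted p = 0.0970), beside 0.46 for Snrk. These likenesses are descriptions over the same mice and the same inert tumours.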

How the data were processed

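Per the labels, genomic DNA of tumour-bearing lung was sequenced for tumour barcodes. The deposited table gives, per the file headers, a read count for each mouse and barcode, the authors' estimated cell number (a signal, equal to the count times the mouse's conversion) and that conversion ratio in cells per read, which equals 500000 divided by the mouse's standard reads (also a deposited signal). How barcodes were aligned and clustered was not given in the sources used here. No guide, genome or gene coordinate was needed. An item of the genotype that all groups share is not reported here. Of 1019578 lines, 105870 were repeats and were dropped, all in KT replicate 2.

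A mouse was used with at least 20 inert tumours, and a vector's size in a mouse with at least 5 tumours. Log2 ratios of Snrk over inert tumours were compared over mice with two-sided exact tests that permute the mice's genotypes or flip signs, with Benjamini-Hochberg adjustment over the 24 targeting vectors (23 for contrasts with Snrk) and a threshold of 0.05. The 95% intervals invert the exact test. A limma 3.58.1 fit on the ratios, edgeR 4.0.16 (quasi-likelihood, TMM) on tumours and reads and DESeq2 1.42.0 on tumours were alternatives, beside other floors, size summaries, inert references and leaving out each mouse. The size comparison of KT_Cas9 with KT mice was tested on these tumours, with vector labels shuffled within mice and some vectors' sizes scaled. The other comparisons and fits were not tested in this way. Mice were numbered in accession order where the labels give no number, and p-values measure the spread between mice. Intervals and floors cover counting error only where they rest on reads.

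The vectors named beside Snrk were the other AMPK-related kinases, the Lkb1 and multiple Sik classes, the inert vectors and the 3 most alike in size. The member, these lists and the tests were chosen with earlier results of these data known.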

Additional observations from a re-analysis of the deposited data

Results flagged for a closer look

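In KT_Cas9 replicate 2 the log2 number ratio of Snrk over inert tumours was -0.92, while the other 9 mice of the genotype ran from -1.69 to -1.34. The mouse lay far above the others: its gap to the nearest was 0.542 of the range of the group, against a critical value of 0.466 for 10 mice. It had 66 Snrk and 125 inert tumours and 92713 reads of named vectors, the lowest of the KT_Cas9 mice. At the floor about 3 times lower its ratio was -1.347, close to -1.351 in replicate 7 and -1.357 in replicate 1. It was still the highest of the group there but no longer stood apart. The check covered the lowest and highest mouse for size, number and summed cells in each genotype, and flagged only this value. Chance marks about 1 group in 20 in this way.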

How the results depend on the processing

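Of 288 alternative values over the 12 results, 241 kept their direction and side of the threshold, 37 turned direction and 10 kept it but passed where the main value had not. With those that turned and passed, 14 alternatives passed in all. No pairing of mice between genotypes was possible because the labels give no replicate numbers and each mouse has 1 genotype. The tests within a genotype compared vectors within each mouse. With the median over 26 vectors in place of the inert reference, Snrk size fell to -0.48 (KT_Cas9 against KT, adjusted p = 0.0274 by exact permutation), -0.13 (KTL_Cas9 against KT), -0.37 (within KT_Cas9, adjusted p = 0.00781 by exact permutation) and -0.0280 (within KTL_Cas9), and summed cells were -0.93, -0.0716 and 0.85 (adjusted p = 0.0259 by exact permutation for KTL_Cas9 against KT_Cas9). With the inert vector of 3 guides alone, KTL_Cas9 against KT_Cas9 was -0.0678 for size and -0.0749 for cells. For size, KT_Cas9 against KT was -0.0613 with the median, -0.0047 with the 80th percentile, -0.12 with the arithmetic mean and -0.0628 at the floor about 3 times below 500 cells (the low floor). KTL_Cas9 against KT was -0.16 with the median, -0.37 and -0.12 with the 90th and 95th percentiles, -0.0683 with the arithmetic mean and -5.54e-05 at 5000 cells. KTL_Cas9 against KT_Cas9 was -0.10, -0.47 and -0.49 with the median, 90th and 95th percentiles and -0.17 at 5000 cells. Within KTL_Cas9 the same 3 summaries gave -0.0656, -0.17 and -0.0251, and the 95th percentile gave 0.46 within KT_Cas9. Cells of KT_Cas9 against KT were -0.14 at 1500 and -0.0041 at the low floor. By edgeR, cells were -0.94 for KT_Cas9 against KT and 1.04 for KTL_Cas9 against KT_Cas9, and number of KTL_Cas9 against KT was 0.31, with 0.29 by DESeq2. At the low floor number was 0.49 (KTL_Cas9 against KT) and 0.31 (KTL_Cas9 against KT_Cas9). With each mouse left out in turn, KT_Cas9 against KT ran from -0.0148 to 0.10 for size, 0.12 to 0.20 for number and -0.11 to 0.34 for cells. KTL_Cas9 against KT ran from 0.02 to 0.26, 0.39 to 0.56 and 0.19 to 0.54, and KTL_Cas9 against KT_Cas9 from -0.0233 to 0.22, 0.21 to 0.39 and 0.05 to 0.50. Size within KT, KT_Cas9 and KTL_Cas9 ran from 0.10 to 0.19, 0.13 to 0.25 and 0.16 to 0.41. The cause of these changes was not tested. Over the settings other than left-out mice, vectors called of 24 ranged from 0 to 15 for size between KT_Cas9 and KT (main 14), 0 to 4 between KTL_Cas9 and KT (main 0) and 6 to 14 between KTL_Cas9 and KT_Cas9 (main 9). For number they ranged from 0 to 3, 0 to 6 and 0 to 15 (main 0, 0 and 2), for cells from 0 to 14, 0 to 3 and 5 to 14 (main 8, 0 and 5), and for size within KT_Cas9 from 0 to 22 (main 18).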
